A study of Mus musculus with 9 samples.

Results

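Ly6c1, Ly6c2, Ly6a, Ly6e and Ly6h, 5 genes of the Ly6 family, were followed across the cerebral cortex of 3 inbred mouse strains. They are 5 of the 54532 genes in the deposited table. The genes were picked by name, and the choice was made on measured values: Ly6c1 was selected on its absence in WSB in these same libraries, and the other members are relatives of it. The levels of Ly6c1 in WSB against the other strains are therefore given as a description with no test. The libraries came from 3 male mice each of B6 (C57BL6/J), C3H (C3H/HeJ) and WSB (WSB/EiJ), inbred animals of 8 to 12 weeks bred locally and given no treatment in the labels. The mouse reference genome was built from B6, whereas WSB descends from wild mice. Values are FPKM, in which the reads on a gene are divided by its length and by a scale for the library, and read numbers could be recovered from them. Reads on genes ran from 16317439 to 21562429 per library.

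Ly6 proteins share a small cysteine-rich fold with 3 loops, called the Ly6/uPAR domain, and most are held at the cell surface by a lipid anchor. In the brain, Ly6c1 and Ly6a are known as genes of the vascular endothelium, and Ly6a, also called Sca-1, is the surface protein through which engineered AAV capsids of the PHP.B type enter the mouse brain. Ly6c2 is best known from monocytes and other white blood cells, where its protein is the Ly6C antigen used in flow cytometry. Ly6e is a broadly used gene induced by interferon, and Ly6h belongs to the neuronal members, which act on nicotinic acetylcholine receptors.

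All 5 genes lie on chromosome 15, and their coordinates in the deposited table equal those of GENCODE M21 on GRCm38. Ly6e (ENSMUSG00000022587) spans chr15:74955051-74959905 on the plus strand. Ly6a (ENSMUSG00000075602) spans chr15:74994877-74998031, Ly6c1 (ENSMUSG00000079018) chr15:75044018-75048830, Ly6c2 (ENSMUSG00000022584) chr15:75108158-75111970 and Ly6h (ENSMUSG00000022577) chr15:75551268-75567255, all on the minus strand. The midpoint of Ly6a lay 50.0 kb to one side of that of Ly6c1 and the midpoint of Ly6c2 63.6 kb to the other.

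Ly6c1 and Ly6c2 are near-identical copies, so how far their reads can be told apart bears on every value of the pair. In the reference, the coding sequences of transcripts Ly6c1-201 and Ly6c2-201 have 393 bases each and share 384 of them (97.7%). The first 240 coding bases hold 6 of the 9 differences and are shown, 5′ to 3′ in the direction of the genes, with the bases that differ in capitals.
Ly6c1: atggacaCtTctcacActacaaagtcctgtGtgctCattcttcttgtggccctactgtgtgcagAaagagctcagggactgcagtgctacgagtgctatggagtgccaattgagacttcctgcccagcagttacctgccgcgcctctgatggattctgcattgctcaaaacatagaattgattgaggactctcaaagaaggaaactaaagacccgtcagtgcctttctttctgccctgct
Ly6c2: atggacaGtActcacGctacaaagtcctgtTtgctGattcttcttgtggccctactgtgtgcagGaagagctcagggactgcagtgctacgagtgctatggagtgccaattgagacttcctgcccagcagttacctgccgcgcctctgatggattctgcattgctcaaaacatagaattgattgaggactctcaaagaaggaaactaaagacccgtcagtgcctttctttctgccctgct
The longest stretch of coding sequence without a difference was 188 bases, longer than a read of 150 bases. Of the 695 windows of 150 bases in the Ly6c1 transcript, 39 (5.61%) also occurred in Ly6c2, and none of the windows of Ly6a, Ly6e or Ly6h occurred in another gene's transcripts. Ly6a was the next closest relative, with 329 of 402 aligned coding bases (81.8%) shared with Ly6c1, whereas Ly6e and Ly6h shared 46.6% and 45.9%. These are reference sequences, and the WSB and C3H alleles were not analysed here.

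Ly6c1 was plainly expressed in B6 and C3H cortex and had no read in WSB. Whether reads from a WSB allele could be placed on the reference was not tested. The 3 B6 mice had 10.5, 11.0 and 10.8 FPKM, from 316, 371 and 387 reads. The 3 C3H mice had 18.1, 12.0 and 12.4 FPKM, from 566, 389 and 405 reads. The 3 WSB mice had 0 reads each, which allows up to 0.103 FPKM per library at a floor of 3 reads. Against that floor the mean was at least 105-fold higher in B6 and at least 138-fold higher in C3H. WSB stood apart from both strains with no overlap, in every mouse, which is how the gene was chosen. Of 10946 genes with at least 100 reads in each of the 6 B6 and C3H libraries, Ly6c1 was the only one with 0 reads in all 3 WSB libraries. The same rule found 0 of 10812 genes at 0 in B6 and 0 of 10862 at 0 in C3H. For Ly6c1 the rule reuses the values on which the gene was chosen, and it depends on the cut at exactly 0 reads. Cyp4f16 was also near 0 in WSB, at a mean of 0.0199 FPKM against 1.65 in B6 and 1.92 in C3H.

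Between the strains with reads on the gene, every C3H mouse had more Ly6c1 than every B6 mouse, at 14.2 ± 3.4 FPKM (SD, n = 3) against 10.8 ± 0.2 (SD, n = 3). C3H replicate 1 lay well above the other C3H mice. The log2 difference was 0.37 (SE 0.15), with a 95% interval from 0.0072 to 0.73, and did not pass the threshold after adjustment over all genes tested (limma, adjusted p = 0.201). Without C3H replicate 1 the difference was 0.18, less than its value with all mice by over 1.5 times. In bulk tissue, fewer cells of a type and less RNA per cell cannot be told apart.

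Ly6c2 was close to the limit of these libraries, and C3H was the strain in which it was detected in every mouse. C3H mice had 14, 9 and 13 reads, or 0.275, 0.170 and 0.244 FPKM. The 3 B6 mice had 0, 0 and 1 reads and the 3 WSB mice 0, 0 and 1. The groups did not overlap between C3H and either of the other strains. The log2(FPKM + 0.1) difference was 1.63 (SE 0.42, adjusted p = 0.0772) for C3H minus B6 and -1.62 (SE 0.42, adjusted p = 0.0730) for WSB minus C3H, neither past the threshold in limma. Both passed when all 3 strains shared one fit (adjusted p = 0.0365 and 0.0327), and over the 13 alternatives in which Ly6c2 was tested the adjusted p ran from 0.0067 to 0.182 for C3H minus B6 and from 0.0080 to 0.174 for WSB minus C3H. Ly6c2 was not tested between WSB and B6, where its mean was under 0.1 FPKM. It passed that filter only through C3H, at a mean of 0.230 FPKM against 0.0057 in B6 and 0.0067 in WSB. The p-values of the filtered fits therefore give no separate support to a higher level in C3H. In C3H, its FPKM was 0.0163 ± 0.0029 (SD, n = 3) of that of Ly6c1 in the same mouse, and how many of its reads came from Ly6c1 was not tested.

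Ly6a was lowest in C3H, and B6 and WSB did not differ beyond their spread. The 3 C3H mice had 3.17, 3.34 and 3.76 FPKM, from 71, 78 and 88 reads. The 3 B6 mice had 10.2, 8.51 and 9.07 FPKM, and the 3 WSB mice 7.29, 11.2 and 9.63. Every C3H mouse was thus below every mouse of the other strains. Ly6a was 2.66-fold lower in C3H than in B6 on the log2(FPKM + 0.1) scale (log2 difference -1.41, SE 0.11, adjusted p = 0.000438) and 2.65-fold higher in WSB than in C3H (1.41, SE 0.16, adjusted p = 0.0035). Between WSB and B6 the log2 difference was -0.0040, with a 95% interval from -0.37 to 0.37 (adjusted p = 0.993). Both calls against C3H held in 17 of 17 alternative analyses. Among these, median-ratio rescaling and the sum of Ly6c1 and Ly6c2 could hardly change them. The pair of endothelial genes did not follow the same order of strains: Ly6c1 was lowest in WSB and Ly6a in C3H. The ratio of Ly6c1 to Ly6a FPKM was 1.17 ± 0.13 (SD, n = 3) in B6 mice. In C3H mice the ratio was 4.21 ± 1.33 (SD, n = 3).

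Ly6e and Ly6h were the abundant members and did not pass the test in any comparison. Ly6e had 41.7, 48.3 and 51.5 FPKM in B6, 45.7, 42.6 and 45.3 in C3H and 49.4, 46.0 and 45.0 in WSB. All strains overlapped. Its log2 differences were -0.0062 for WSB minus B6 (95% interval -0.22 to 0.21, adjusted p = 0.982), -0.08 for C3H minus B6 (-0.29 to 0.14, adjusted p = 0.636) and 0.07 for WSB minus C3H (-0.09 to 0.24, adjusted p = 0.564), so a change of more than about 0.3 on the log2 scale lay outside all 3 intervals. Ly6h had 46.4, 79.5 and 73.0 FPKM in B6, 91.1, 80.1 and 72.2 in C3H and 77.9, 87.0 and 62.3 in WSB. B6 replicate 1 was the lowest of the 9 mice. The intervals of Ly6h were wider, from -0.28 to 0.72 for WSB minus B6, from -0.14 to 0.79 for C3H minus B6 and from -0.43 to 0.22 for WSB minus C3H, with adjusted p of 0.633, 0.355 and 0.681.

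**Figure D1:**
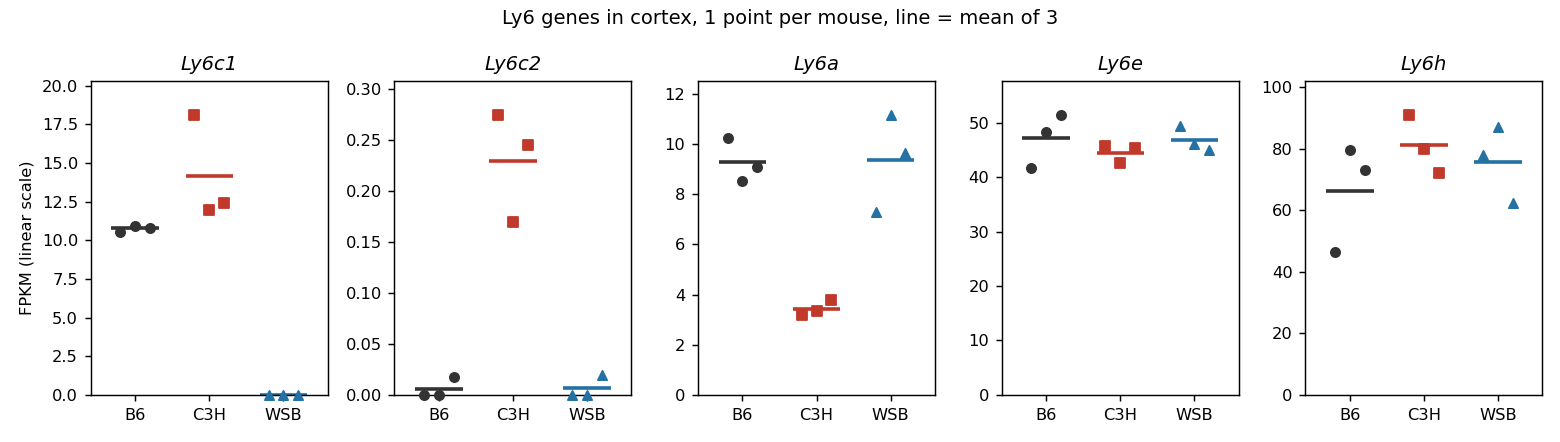
FPKM (linear axis, a separate scale for each gene) of the 5 Ly6 genes by strain, with 1 point per mouse and a line at the mean of the 3 mice. Ly6c1 sits at 0 in all WSB mice, Ly6a is lowest in the 3 C3H mice at 3.17 to 3.76 FPKM, Ly6c2 stays under 0.3 FPKM everywhere, and the strains overlap for Ly6e and Ly6h.

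In the order of levels per gene length, Ly6h and Ly6e came first in every strain, at means of 66.3 and 47.2 FPKM in B6, and Ly6h exceeded Ly6e in all 9 mice. Ly6c1 and Ly6a followed at 10.8 and 9.27 FPKM in B6, where the ratio of the 2 genes was between 1.03 and 1.29 in single mice, and Ly6c2 came last there. In WSB the order ended with Ly6a at 9.36 ± 1.95 FPKM (SD, n = 3), with Ly6c2 and Ly6c1 at or near 0.

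The rest of the chromosome 15 cluster was mostly silent in cortex. Of 54 annotated genes within 500 kb of Ly6c1, counting Ly6c1, 26 had 0 reads in all 9 libraries and 20 others had at most 20 reads in any library. The close relatives Ly6g, Ly6f and Ly6i had at most 2 reads in a library. Between 11 and 13 genes of this window could be tested in each comparison. With Ly6c1 set aside in the WSB comparisons, since its absence there chose it, no other gene of the window was called in WSB against B6, and Ly6a was called in C3H against B6 and in WSB against C3H. The shares of all genes called were 5.9%, 4.64% and 5.74% in the 3 comparisons. Ly6e, 88.9 kb from Ly6c1, and Ly6a, 50.0 kb from it, were at B6 levels in WSB within the intervals given above.

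**Figure D2:**
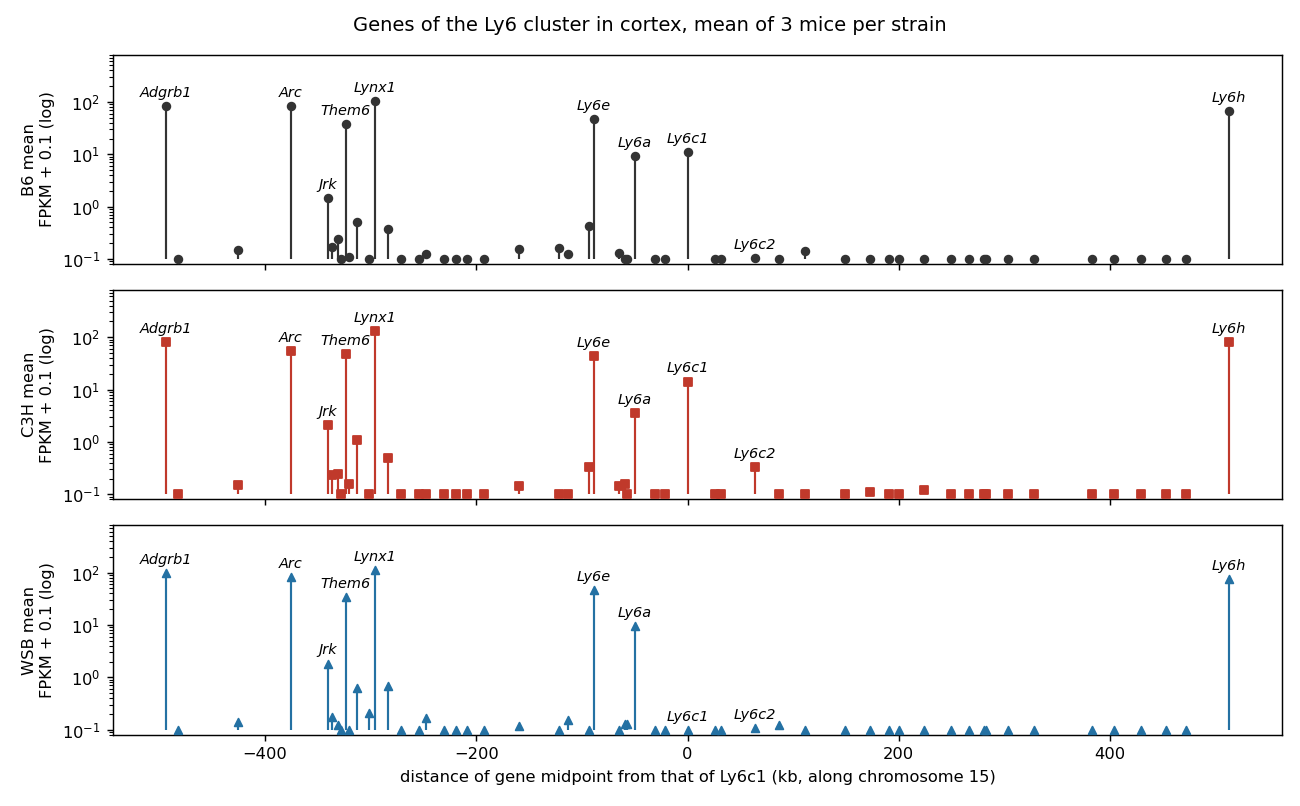
Mean FPKM plus 0.1 (log axis, 3 mice per strain) of the annotated genes within 500 kb of Ly6c1, and of Ly6h at 512.8 kb, against the distance of each gene's midpoint from that of Ly6c1 along chromosome 15. In WSB the Ly6c1 point drops to 0 reads while Ly6a, Ly6e, Lynx1 and Ly6h stay in place, and in C3H Ly6a is lower.

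The wider Ly6 family held a few further strain differences. Of 43 listed genes with a Ly6/uPAR domain, 38 were in the table, 7 of those had 0 reads in all libraries, and 9 averaged 1 FPKM or more. In WSB against B6, 3 of 16 tested genes were called, 1 higher and 2 lower, with Ly6c1 among them by the way it was chosen. Over all genes 5.9% were called in that comparison, 2.81% higher and 3.09% lower. In C3H against B6, 1 of 18 was called and it was lower, beside 4.64% of all genes (2.38% higher and 2.26% lower). In WSB against C3H, 3 of 17 were called, 2 higher and 1 lower, Ly6c1 again included, beside 5.74% of all genes (2.61% higher and 3.13% lower). The median log2 difference of the tested family genes was 0.03, 0.08 and 0.07 in the 3 comparisons, and that of all genes 0.0025, -0.0038 and 0.0089. With Ly6c1 set aside, 2, 1 and 2 genes were called.

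Cd59a, which blocks the membrane attack complex of complement, was higher in WSB than in B6. The 3 WSB mice had 8.17, 10.5 and 11.1 FPKM and the 3 B6 mice 3.05, 5.30 and 2.95. The log2 difference was 1.41 (SE 0.23, adjusted p = 0.0142), and it passed in 12 of 17 alternatives, missing narrowly with eBayes without a trend (adjusted p = 0.0519) and without B6 replicate 1 or 3 or WSB replicate 2 or 3 (from 0.0543 to 0.0562). C3H lay between, at 5.10, 6.13 and 7.20 FPKM. Cd59b, its neighbouring copy on chromosome 2, was higher in WSB than in C3H (1.14 against 0.335 FPKM, log2 difference 1.50, SE 0.29, adjusted p = 0.0293) and passed in 9 of 16 alternatives. It missed without C3H replicate 1 or 3 or WSB replicate 1 or 3 (adjusted p from 0.0566 to 0.103). The call rested on 33, 19 and 25 reads in WSB and 8, 6 and 11 in C3H.

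Lypd6b, whose protein modulates nicotinic receptors, was lower in WSB than in B6. The 3 WSB mice had 3.51, 3.86 and 3.07 FPKM and the 3 B6 mice 5.77, 6.22 and 7.14, with no overlap. The log2 difference was -0.86 (SE 0.12, adjusted p = 0.0085) and passed in 17 of 17 alternatives. C3H mice spread from 4.39 to 7.39 FPKM, and C3H minus B6 was -0.13 (adjusted p = 0.693). Its relative Lypd6 ran from 6.36 to 9.13 FPKM over the 9 mice and Lypd1, a further nicotinic receptor modulator, from 3.94 to 8.78 FPKM, and neither passed in any comparison.

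Lynx1, the prototype of the nicotinic receptor modulators in this family, was the most abundant of the listed genes in these libraries. B6 mice had 101, 99.2 and 111 FPKM, C3H mice 139, 116 and 144, and WSB mice 106, 112 and 123. C3H did not overlap B6, and the log2 difference of 0.35 (SE 0.10) missed the threshold (adjusted p = 0.103). It passed without C3H replicate 2 (adjusted p = 0.0264). Among the 9 nicotinic receptor subunit genes, all of them tested, 0 were called in each comparison by limma, with 0, 3 and 0 at an unadjusted p under 0.05 in WSB against B6, C3H against B6 and WSB against C3H. Over all genes 4.64% were called in C3H against B6 and 4972 of 20602 had an unadjusted p under 0.05, so neither count marks out the subunits. Chrna4 and Chrnb2, the subunits of the main cortical nicotinic receptor, had means of 6.98 and 6.89 FPKM in B6, 10.4 and 8.72 in C3H and 8.73 and 8.27 in WSB.

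**Figure D3:**
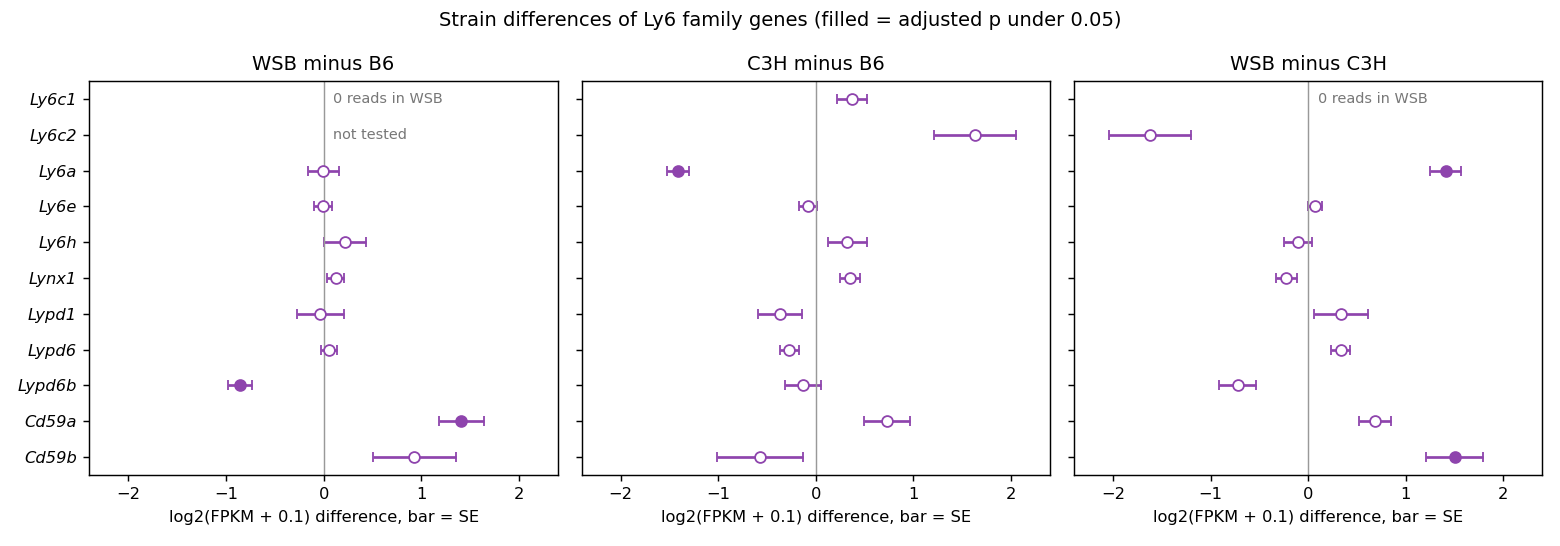
Difference in log2(FPKM + 0.1) between strains, 3 mice each, for the 5 members and the other Ly6 family genes that were called or averaged 1 FPKM or more, with bars for the SE and filled points for an adjusted p under 0.05. Ly6a (-1.41 and 1.41), Lypd6b (-0.86), Cd59a (1.41) and Cd59b (1.50) are filled, Ly6c1 is not drawn against WSB, and Ly6c2 was not tested for WSB minus B6.

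Markers of brain endothelium, the cells in which Ly6c1 and Ly6a are known to be used, were present in all strains. All 26 listed markers were tested. In each comparison 2 of them were called, counts too small to set the list apart. The shares of all genes called were 5.9%, 4.64% and 5.74% in WSB against B6, C3H against B6 and WSB against C3H. In that order, 9, 4 and 6 markers had an unadjusted p under 0.05 in limma. Over all genes these were 4235 of 20746, 4972 of 20602 and 4912 of 20607. Markers below 0 were 19, 11 and 19 of 26, beside 10310, 10384 and 10080 of all genes tested. In WSB against B6, 2 were called lower and 24 were not called, with a median log2 difference of -0.09. The called genes were Itm2a, a membrane protein of brain endothelium, at 17.5 ± 1.2 FPKM (SD, n = 3) in WSB and 25.3 ± 0.9 in B6 (log2 difference -0.53, adjusted p = 0.0075), and Slco1a4, an organic anion transporter of the blood-brain barrier, at 2.27 ± 0.22 and 3.49 ± 0.33 FPKM (-0.60, adjusted p = 0.0358). The same genes, Itm2a and Slco1a4, were called lower in WSB against C3H (-0.73 and -0.61, adjusted p = 0.0072 and 0.0403), where the median was -0.17. In C3H against B6, Eng (0.59) and Mfsd2a (0.39), the latter a lipid transporter of the barrier, were called higher and 24 were not called, with a median of 0.01. Cldn5, the tight junction protein of these cells, had 19.9 ± 1.8, 16.7 ± 3.2 and 19.3 ± 3.0 FPKM (SD, n = 3) in B6, C3H and WSB, and the glucose transporter Slc2a1 19.9 ± 1.4, 23.3 ± 1.9 and 19.8 ± 2.5.

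The endothelial markers summed to between 132 and 137 FPKM in B6 mice, 137 and 156 in C3H mice and 121 and 130 in WSB mice, and none of the 26 was at 0. Their sum was highest in C3H replicate 1, the mouse with the most Ly6c1. No endothelial marker was as far from 0 as Ly6a was in either comparison with C3H, but Ly6a was picked with earlier results of these data known. The part of endothelial content in the difference of Ly6c1 between C3H and B6, and in the Ly6a differences, was not tested. Mural cell markers showed 1 call of 9 in WSB against B6 (Acta2, lower), 0 of 9 in C3H against B6 with 1 at an unadjusted p under 0.05, and 1 of 8 in WSB against C3H (Rgs5, higher), with 8 or 9 genes tested against those same shares of all genes.

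**Figure D4:**
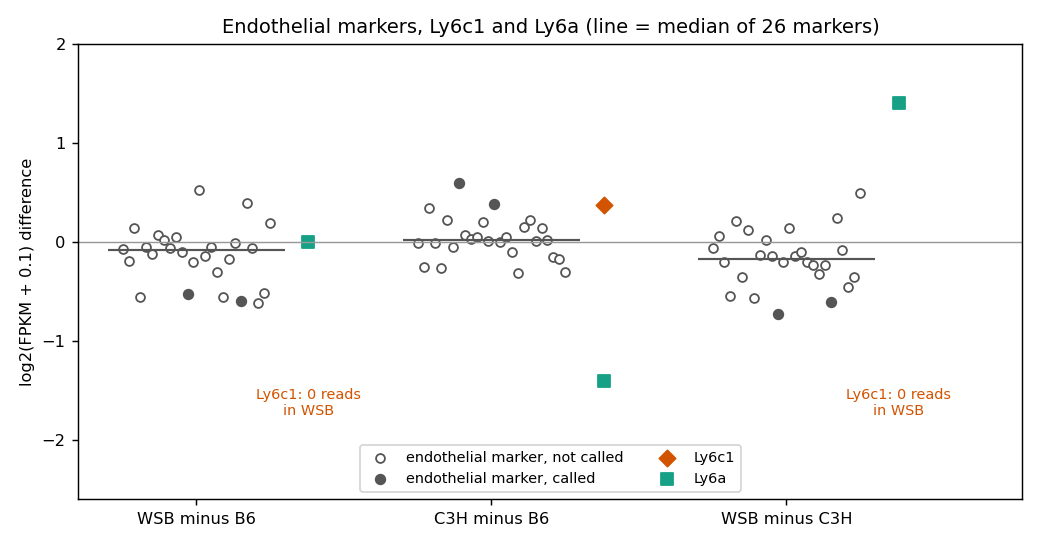
Difference in log2(FPKM + 0.1) between strains for the 26 endothelial markers (circles, filled where called, line at their median) and for Ly6c1 (diamond) and Ly6a (squares). The medians lie at -0.09, 0.01 and -0.17. Ly6a is at -1.41 for C3H minus B6 and 1.41 for WSB minus C3H, and Ly6c1 is not drawn where WSB has 0 reads.

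White blood cells, in which Ly6c2 is known to be used, left little RNA in these samples. The 11 leukocyte markers summed to between 0.564 and 1.22 FPKM in B6 mice, 0.868 and 2.58 in C3H mice and 0.354 and 0.757 in WSB mice. Limma called 0 of the 3 or 4 that could be tested in each comparison. At an unadjusted p under 0.05 there were 0, 1 and 1 in WSB against B6, C3H against B6 and WSB against C3H. The shares of all genes called were 5.9%, 4.64% and 5.74%, so 0 of so few genes says little about leukocytes. The mean sum was highest in C3H, at 1.86 FPKM against 0.902 in B6 and 0.581 in WSB. The T cell gene Cd3e, 1 of the 11, was at 0 reads in C3H and WSB and does not stand for the list. Hemoglobin and other red blood cell genes were highest in sum in C3H: the sum lay between 217 and 254 FPKM in B6 mice, 632 and 1010 in C3H mice and 249 and 329 in WSB mice, and Hba-a1, Hbb-bs and Alas2 were called higher in C3H in both of its comparisons. In WSB against B6, Hba-a1 was also called higher (115 against 60.8 FPKM, adjusted p = 0.0048) and Hbb-bt lower (1.13 against 24.9 FPKM, adjusted p = 0.0014). Single globin genes varied widely within a strain. Hbb-bt had 69, 30 and 945 reads in the C3H mice. Hba-a2 had 17, 1010 and 1064 reads in the C3H mice and 328, 410 and 3 in the WSB mice. How reads were placed among the globin copies was not tested. All 5 listed red blood cell genes were tested in each comparison, beside those same shares of all genes called. The part of blood in the Ly6c2 and Ly6a differences of C3H was not tested. The microglial markers summed to 146 to 157, 154 to 186 and 130 to 135 FPKM in B6, C3H and WSB. All 8 were tested in each comparison, beside the same shares of all genes called. Csf1r and Trem2 were called lower in WSB against B6 and Aif1 higher in C3H against B6. C1qa and Trem2 were called lower in WSB against C3H. The 6 neuronal markers of cortex summed to 970 to 1108 FPKM over the 9 libraries and were all tested in each comparison. Of these the synaptic gene Syt1 alone was called, lower in C3H in both of its comparisons, beside the same shares of all genes.

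Interferon-induced genes, the group to which Ly6e and Ly6a are commonly assigned, were mostly not called. Of 22 tested, 1 was called in WSB against B6 (Gbp3, lower, with a list median of -0.30), 0 in C3H against B6 by limma with 2 at an unadjusted p under 0.05 (median -0.06), and 3 in WSB against C3H (Bst2, Gbp3 and Ifit1, all lower, median -0.20). The shares of all genes called were 5.9%, 4.64% and 5.74%, and counts of calls this small do not set the list apart. Listed genes below 0 were 17, 12 and 18 of 22 in the 3 comparisons. Over all genes these were 10310 of 20746, 10384 of 20602 and 10080 of 20607. The cause of the lower values in WSB was not tested. Gbp3, a guanylate-binding protein, had 0.167 ± 0.117 FPKM (SD, n = 3) in WSB, 1.02 ± 0.34 in B6 and 0.814 ± 0.150 in C3H. Ifi27 and Ifit3, the most abundant of the list, had 19.7 and 5.02 FPKM in B6, 21.0 and 6.39 in C3H and 19.6 and 4.61 in WSB.

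Differences between strains also moved with GC content. Over genes, which do not stand in for replicates, the Spearman correlation of the log2 difference with transcript GC was 0.11 in WSB against B6, 0.48 in C3H against B6 and -0.40 in WSB against C3H. Ly6a and Ly6c1 have 48.1% and 49.6% GC. With the GC trend removed, Ly6a stayed at -1.38 in C3H minus B6 and 1.40 in WSB minus C3H.

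The genes with values most like those of each member were found by Pearson correlation of log2(FPKM + 0.1) over the 9 libraries. The search covered 13010 genes that averaged 1 FPKM or more. The 9 libraries fall into 3 strains, so for a member that differs between strains any gene with the same order of strains scores high. For Ly6e and Ly6h, whose strains overlapped, differences among mice of a strain also enter the score. For Ly6c1 they were Tpm3 (r = 0.994), Slc2a4rg-ps, Cyp4f16, AI464131 and Tagap1, on chromosomes 3, 2, 17, 4 and 17. Tpm3, a tropomyosin, had 33.8, 33.9 and 15.3 FPKM in B6, C3H and WSB, and Cyp4f16, a cytochrome P450 gene, 1.65, 1.92 and 0.0199. For Ly6c2 they were Alad (r = 0.991), an enzyme of heme synthesis with 11.6, 35.3 and 12.4 FPKM, then Ift122, Gm10020, Glo1 and Gm13394. For Ly6a they were Gm42372 (r = 0.979), Zfp532, Immp1l, Emc7 and Evpl. Evpl, a component of the cornified envelope, had 1.38, 0.327 and 1.97 FPKM in B6, C3H and WSB. For Ly6e they were Gria1 (r = 0.914), Clns1a, Ehd3, Qrfpr and Spns2, and for Ly6h Mtfp1 (r = 0.969), Rac3, Kirrel3, Amer3 and Tbkbp1. None of the genes named for Ly6e or Ly6h was called in any comparison.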

How the data were processed

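Cortex RNA of 3 male mice per strain was sequenced with paired-end 150 bp reads. The authors trimmed reads with Cutadapt, obtained gene counts with HTSeq and deposited these as FPKM, and the submitters' notes also name STAR and DESeq2. Versions, genome build, strand setting and the handling of reads that align to several genes are not given in the sources used here. Strains came from the sample labels.

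Multiplying FPKM by gene length and dividing by each library's step gave whole numbers for 100% of values (tolerance 0.001 reads), taken as reads per gene. Limits use a floor of 3 reads and cover counting error only. The deposited scale equalled median-ratio scaling. Same-strain libraries differed by more than sampling noise. Strains were compared 2 at a time by two-sided limma 3.58.1 (R 4.3.3, lmFit, then eBayes fitting a trend) on log2(FPKM + 0.1). Genes averaging 0.1 FPKM or more over the 6 libraries were tested, with Benjamini-Hochberg adjustment over all genes tested and a threshold of 0.05. Fold changes on this scale understate those of low genes. The method was tested on simulated data, where the share of calls on unchanged genes exceeded the one the threshold sets. Calls with an adjusted p close to the threshold are therefore less certain than it implies.

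The members and lists were chosen with earlier results of these data known. Named genes are the members, Ly6 family genes called or at 1 FPKM or more, called neighbours within 500 kb, the 5 genes most like each member, and, of the other lists, called genes and up to 4 abundant ones. Ly6g, Ly6f, Ly6i and Cd3e were named after their values were seen. Sequences came from GENCODE M21. Alternatives were pseudocounts of 1 and 0.01, Ly6c1 and Ly6c2 summed, no filter or one at 1 FPKM, rescaling by median ratios, voom weights, one fit for all 3 strains, no eBayes trend, a replicate block, removal of the GC trend, and leaving out each mouse. Median-ratio rescaling left the relative scale of the libraries unchanged, and the sum left the values of all other genes unchanged. Counts of alternatives passed include both.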

Additional observations from a re-analysis of the deposited data

How the results depend on the processing

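The count of called Ly6 family genes stayed at 2 or 3 in WSB against B6 (2 to 3 with a mouse left out). In C3H against B6 it moved from 1 to 2 with no filter, with all 3 strains in one fit, with eBayes without a trend and with voom weights, each adding Ly6c2, and was 1 to 2 with a mouse left out (Cd59a was added without B6 replicate 2, Lynx1 without C3H replicate 2). In WSB against C3H it moved from 3 to 6 with voom weights, which added Cd59a, Ly6c2 and Lypd6b, and was 2 to 3 with a mouse left out. The genes called there also changed under other settings: Ly6c2 passed with no filter, in the shared fit and with eBayes without a trend, Cd59a with a filter of 1 FPKM and under the block, and Lypd6b in the shared fit and without C3H replicate 3. The cause of these moves was not tested. Ly6c2 passed the filter only through C3H, so its added calls in filtered fits give no separate support to a higher level there. The replicate numbers did not pair the mice (correlations of same-numbered deviations from -0.157 to 0.037), and with the replicate number as a block (replicate block) the counts were 3, 1 and 3. Cd59b lost its call in WSB against C3H under the block (adjusted p = 0.0612) while Cd59a gained one (adjusted p = 0.0328). Some log2 differences near 0, none of them called, changed sign. In WSB minus B6, Ly6a was 0.0050 with voom weights and 0.018 with the GC trend removed, and ran from -0.14 to 0.16 with a mouse left out. Over the fits that left out a mouse, Ly6e ran from -0.092 to 0.060, Ly6h from -0.022 to 0.37 and Lypd1 from -0.21 to 0.23 in WSB minus B6, Lypd6b from -0.31 to 0.061 in C3H minus B6, and Ly6h from -0.21 to 0.028 in WSB minus C3H. Depth limits Ly6c2, with at most 14 reads, and Cd59b, with at most 33.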
